A study of Mus musculus with 8 samples.

Results

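Mouse macrophages read antibody-coated targets through Fc gamma receptors, and 5 genes of this system were followed across all libraries: the activating receptors Fcgr1, Fcgr3 and Fcgr4, the inhibitory receptor Fcgr2b, and Fcer1g, the chain that the activating receptors share. They were chosen by name, with earlier results of these data known, and make up 5 of the 32249 genes listed in the count tables. All 5 were detected in each of the 8 libraries and all 5 passed the filter on low counts, under which 10422 genes were tested. The libraries came from bone marrow macrophages of the C57Bl/6J strain, and the labels give the mice as male and aged 10 weeks. Hind limb marrow was cultured for 3 days with M-CSF, the growth factor that drives macrophage formation, and the cells were then held for 24 h with CYR61 at 4 µg/mL (4 libraries) or without it (4 control libraries). CYR61, the product of Ccn1, is a secreted matrix protein that binds integrins. Both groups carried no other stated allele or agent beyond M-CSF. Single cells were captured in the HIVE microwell platform and each molecule was counted once by its unique molecular identifier (UMI). The series title places the work in liver fibrosis and SYK signalling, and SYK is the kinase that activating Fc receptors recruit.

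As background, Fcgr1 encodes the high-affinity receptor for IgG, which can hold monomeric antibody. Fcgr3 encodes a low-affinity receptor that responds to immune complexes, and Fcgr4 a receptor of intermediate affinity for mouse IgG2a and IgG2b. These receptors need the Fcer1g chain, whose immunoreceptor tyrosine-based activation motif (ITAM) is phosphorylated by SRC family kinases and then binds SYK, which leads to phagocytosis and cytokine release. Fcgr2b carries an inhibitory motif (ITIM) in its own tail, recruits the lipid phosphatase SHIP1 (Inpp5d) and raises the threshold for activation. The balance of activating and inhibitory receptors on a macrophage is known to set its response to immune complexes, and interferons are known inducers of Fcgr1 and Fcgr4.

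The 4 receptor genes and the chain map to mm10 (GENCODE vM21) as protein-coding genes, and 4 of the 5 lie close together on chromosome 1. Fcgr2b spans chr1:170958617-170976547 on the minus strand, Fcgr4 chr1:171018920-171029761 on the plus strand, Fcgr3 chr1:171051174-171064935 on the minus strand and Fcer1g chr1:171229572-171234365 on the minus strand. Fcgr1 stands apart at chr3:96282909-96293969 on the minus strand. Fcgr2b shares 155 exon bases with the antisense gene Gm38204, which none of the 8 tables lists. Whether counting used strand is not given in the sources used here, so reads from that stretch cannot be assigned to one of the pair.

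The 250 bases before the RefSeq start of 3 members are shown because the tests below called Fcgr1 and Fcgr4 and not Fcgr2b. They are from RefSeq on GRCm38.p6, read 5′ to 3′ on the gene's strand, and capitals mark matches on either strand to the letters of a GAS element, an interferon-gamma-activated site (TTCNNNGAA), or of the core of an interferon-stimulated response element, ISRE (GAAA, any 2 bases, then GAAA).
Fcgr1, chr3:96293970-96294219, minus strand: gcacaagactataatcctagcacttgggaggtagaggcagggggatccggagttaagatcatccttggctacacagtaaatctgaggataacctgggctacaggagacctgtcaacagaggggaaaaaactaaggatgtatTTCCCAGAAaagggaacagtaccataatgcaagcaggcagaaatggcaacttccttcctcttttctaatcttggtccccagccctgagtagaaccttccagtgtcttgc
Fcgr4, chr1:171018676-171018925, plus strand: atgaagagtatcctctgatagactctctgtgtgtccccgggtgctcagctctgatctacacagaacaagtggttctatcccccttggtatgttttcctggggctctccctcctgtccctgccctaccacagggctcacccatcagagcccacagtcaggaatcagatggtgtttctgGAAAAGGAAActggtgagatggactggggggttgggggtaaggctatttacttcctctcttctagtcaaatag
Fcgr2b, chr1:170976072-170976321, minus strand: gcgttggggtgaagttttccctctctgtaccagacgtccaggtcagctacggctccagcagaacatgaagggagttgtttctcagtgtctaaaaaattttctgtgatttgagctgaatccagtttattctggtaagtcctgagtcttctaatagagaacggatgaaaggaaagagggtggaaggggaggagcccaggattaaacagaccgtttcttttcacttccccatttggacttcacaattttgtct

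The Fcgr1 window held the GAS letters from 109 to 101 bases before the start, letters found in 7.02% of 32851 promoter windows of the same length. The Fcgr4 window held the ISRE letters from 73 to 64 bases before the start, found in 2.98% of these windows. The windows of Fcgr3, Fcgr2b and Fcer1g held neither. The hexamer GAGGAA, a core of sites for the myeloid factor PU.1, was present on either strand in the windows of Fcgr1, Fcgr3 and Fcgr4 and in 23.3% of all windows. The RefSeq starts of Fcgr3, Fcgr2b, Fcgr4 and Fcer1g lie inside the GENCODE gene spans given above, those of Fcgr4 and Fcer1g by few bases. Other starts of those genes were not searched. A match describes letters and was not tested as a binding site.

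The tables listed 40000 barcodes, of which 12848 had at least 300 genes and at most 20% mitochondrial UMIs. Barcodes recurred between libraries of the same date stamp, and 2181 kept barcodes were found in both groups. Among libraries with the same stamp, each barcode was therefore assigned to the one that held most of its UMIs, which left 9196 cells (home-library cells), 499 to 3604 per CYR61 library and 294 to 1058 per control library. UMIs per library in these cells ranged from 1149043 to 13933610 with CYR61 and from 842528 to 3436577 in control, and median UMIs per cell from 789 to 1595 with CYR61 and from 921 to 1144 in control. In control replicate 2, 75.5% of the UMIs in kept barcodes sat in barcodes assigned to CYR61 libraries, against 0.448% to 25.1% in the other control libraries. Against a label of male for all mice, CYR61 replicates 1 and 2 and control replicates 2 and 3 held Xist RNA (1152 to 1249 CPM, where CPM is the UMI count of a gene scaled to a common total of 1000000 UMIs), and CYR61 replicates 3 and 4 and control replicates 1 and 4 held RNA of Y-linked genes (323 to 399 CPM). The median mitochondrial share per cell was 11.9% to 14.3% in the Xist libraries and 4.55% to 11.7% in the Y libraries. Macrophage markers were detected for 12 of 12 genes in all, with sums of 18029 to 23353 CPM with CYR61 and 15408 to 20903 CPM in control. B cell and T or NK cell markers, from lineages that express Fcgr2b or Fcgr3, had 7 of 9 and 9 of 10 genes detected, each under 10 CPM in every library, with Vpreb3 and Gzma among those at 0. The neutrophil list, a lineage that expresses Fcgr3 and Fcgr4, had 16 of 16 genes detected, with sums of 719.7 to 3810 CPM with CYR61 and 720.5 to 2135 CPM in control, which overlapped. No label tells whether the replicates were different mice or different dishes, so p-values measure the spread between these libraries.

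With CYR61, the RNA of Fcgr1 and Fcgr4 rose, while Fcgr3, Fcgr2b and Fcer1g did not pass the test. Of the 5 members, 2 were called higher and 0 lower by edgeR's quasi-likelihood test, adjusted over all genes, beside 1.12% of all tested genes called higher, 0.0384% called lower and 1.16% called in either direction. DESeq2 on the same counts called the same 2 members, beside 1.48% of genes. The cells with CYR61 held more Fcgr1 and Fcgr4 RNA beside a level of Fcgr3 and of the shared chain that overlapped between the groups.

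Fcgr1 was at 424, 380, 523 and 512 CPM in CYR61 replicates 1 to 4, and at 115, 121, 84.3 and 92.7 CPM in control replicates 1 to 4. The lowest CYR61 library stood above the highest control library, and each group was narrow. The means were 459.7 ± 69.1 CPM with CYR61 and 103 ± 17.3 CPM in control (SD, n = 4 each). The log2 fold change was 2.19 (SE 0.18, edgeR adjusted p = 8.47e-05), a 4.55-fold difference with a 95% interval of 3.48 to 5.96. The dendritic cell marker list was also higher in sum, at 309 to 722 CPM with CYR61 and 108 to 129 CPM in control. Of its 8 genes 7 were detected, 6 of them under 10 CPM in every library, and Cd209a was at 0. The other detected gene, Bst2, is also in the type I interferon list used below. Bst2 was at 517 ± 224 CPM with CYR61 and 113 ± 12.1 CPM in control (SD, n = 4 each). The part of dendritic cells in the result was not tested. By p-value Fcgr1 ranked 3 among the 10422 genes tested. The counts behind it were 11167 UMIs with CYR61 and 700 in control, so the control level rests on fewer molecules.

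Fcgr4 was at 189, 170, 198 and 193 CPM in CYR61 replicates 1 to 4, and at 100.4, 72.2, 67.7 and 86.7 CPM in control replicates 1 to 4. Again the groups did not overlap, as was so for Fcgr1, with CYR61 higher, which held for 2.87% of all tested genes, and 5.12% were without overlap in either direction. The means were 187 ± 11.97 CPM with CYR61 and 81.7 ± 14.9 CPM in control (SD, n = 4 each). The log2 fold change was 1.22 (SE 0.18, edgeR adjusted p = 0.00267), a 2.32-fold difference with an interval of 1.78 to 3.04. Its interval and that of Fcgr1 did not overlap, although the difference between the members' fold changes was not tested. Neither call held when barcodes shared between libraries were left where they were listed: the log2 fold changes were then 1.12 for Fcgr1 and 0.70 for Fcgr4 (edgeR adjusted p = 0.9999 for both).

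Fcgr3, the receptor with the most RNA per kilobase, was at 592, 522, 828 and 697 CPM in CYR61 replicates 1 to 4 and at 742, 541, 566 and 624 CPM in control replicates 1 to 4. The groups overlapped across most of their range. The log2 fold change was 0.12 (95% interval -0.28 to 0.53, edgeR adjusted p = 0.9999), an interval that lies below the intervals of Fcgr1 and Fcgr4.

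Fcgr2b, the inhibitory receptor, was at 145, 93.9, 239 and 208 CPM in CYR61 replicates 1 to 4 and at 190.0, 66.2, 43.9 and 231 CPM in control replicates 1 to 4. It was the most variable member, with a control SD of 91.9 around a mean of 133 CPM, against a CYR61 SD of 65.0 around 172 CPM. The log2 fold change was 0.37, with an interval of -0.62 to 1.36 that includes both a fall and a more than 2-fold rise (edgeR adjusted p = 0.9999).

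Fcer1g, the shared chain, was at 666, 598, 1024 and 915 CPM in CYR61 replicates 1 to 4 and at 790, 577, 724 and 987 CPM in control replicates 1 to 4. The groups overlapped, with means of 801 ± 202 CPM with CYR61 and 769 ± 170 CPM in control (SD, n = 4 each). Its log2 fold change was 0.08 (95% interval -0.42 to 0.57, edgeR adjusted p = 0.9999).

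**Figure D1:**
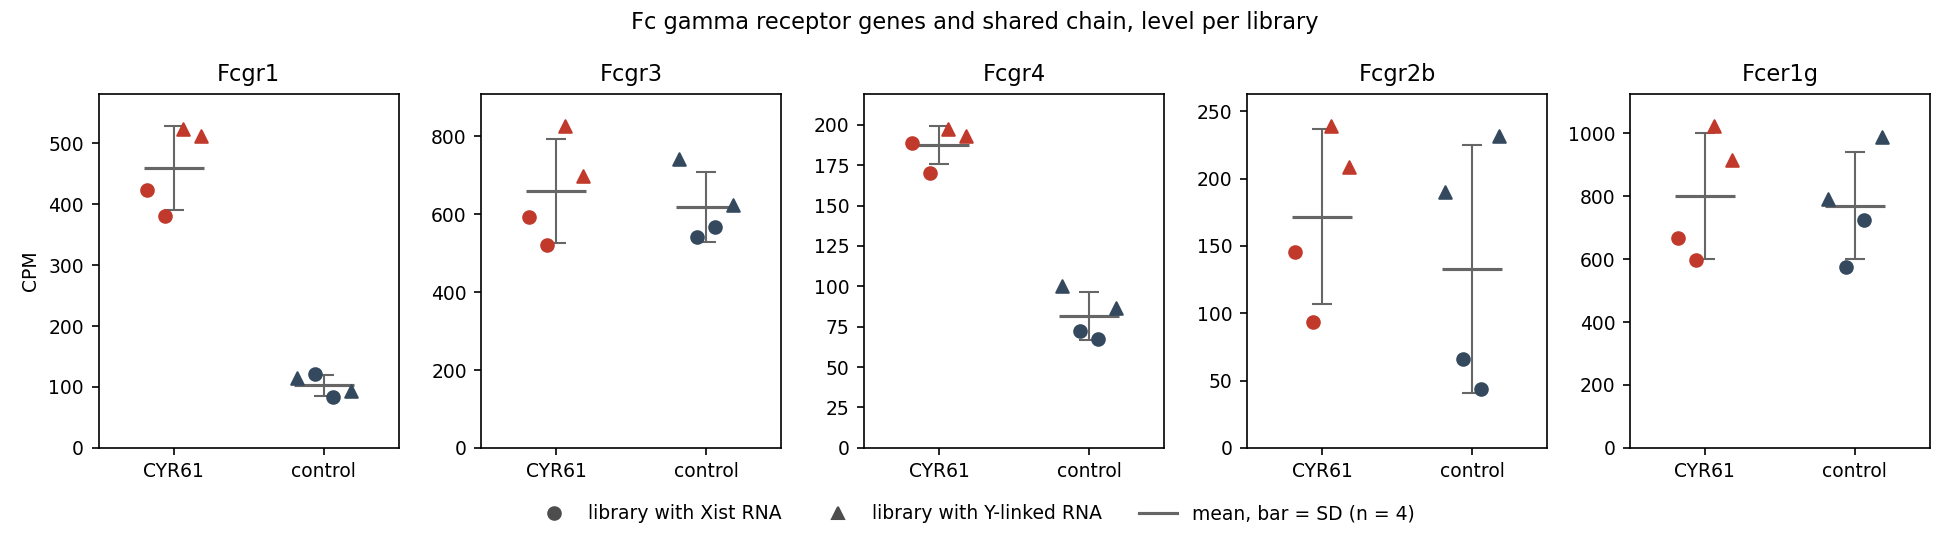
Level of each member in CPM (vertical axes, each from 0) in the 4 CYR61 and 4 control libraries. Points are libraries, circles those with Xist RNA and triangles those with Y-linked RNA, with the group mean and SD. The CYR61 libraries lie above all control libraries for Fcgr1 and Fcgr4, and the groups overlap for the other members. For Fcgr2b the triangles lie above the circles in both groups.

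Per kilobase of exon, the order of the members differed between the groups in the place of Fcgr1. Mean levels with CYR61 were 916 ± 231 CPM per kb for Fcer1g, 380.1 ± 76.6 for Fcgr3, 178 ± 26.7 for Fcgr1, 149 ± 9.53 for Fcgr4 and 29.7 ± 11.2 for Fcgr2b (SD, n = 4). In control they were 880.3 ± 195 CPM per kb for Fcer1g, 356 ± 51.7 for Fcgr3, 65.1 ± 11.8 for Fcgr4, 39.8 ± 6.69 for Fcgr1 and 22.9 ± 15.9 for Fcgr2b (SD, n = 4). Fcer1g was above Fcgr3, and Fcgr3 above the other receptors, in all 8 libraries. Fcgr1 was above Fcgr4 per kb in 4 of 4 CYR61 libraries and in 0 of 4 control libraries. In CPM, without division by length, Fcgr1 was above Fcgr4 in 4 of 4 libraries of each group, so the change of order depends on that division. In CPM, Fcgr1 was above Fcgr2b in 4 of 4 CYR61 libraries and 2 of 4 control libraries. The neighbours Fcgr1 and Fcgr4 with CYR61 differed by little more than 1 SD, and Fcgr1 and Fcgr2b in control overlapped, with Fcgr1 higher in 3 of 4 libraries. The labels do not say whether tags came from one end of the transcript, in which case dividing by length would understate long transcripts such as Fcgr2b.

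Within the summed UMIs of the 4 receptors, Fcgr1 took a larger share and Fcgr3 a smaller one with CYR61 than in control. Fcgr1 made up 31.4%, 32.6%, 29.3% and 31.8% of receptor UMIs in CYR61 replicates 1 to 4, and 9.99%, 15.1%, 11.1% and 8.96% in control replicates 1 to 4. Fcgr3 made up 44.6% ± 1.31 with CYR61 and 66.7% ± 5.87 in control (SD, n = 4 each), without overlap. These are shares of 1 sum, and the level of Fcgr3 itself overlapped between the groups. Fcgr4 took 12.9% ± 1.67 with CYR61 and 8.76% ± 0.275 in control, without overlap. Fcgr2b took 11.3% ± 2.44 with CYR61 and 13.2% ± 7.63 in control, with overlapping groups.

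**Figure D2:**
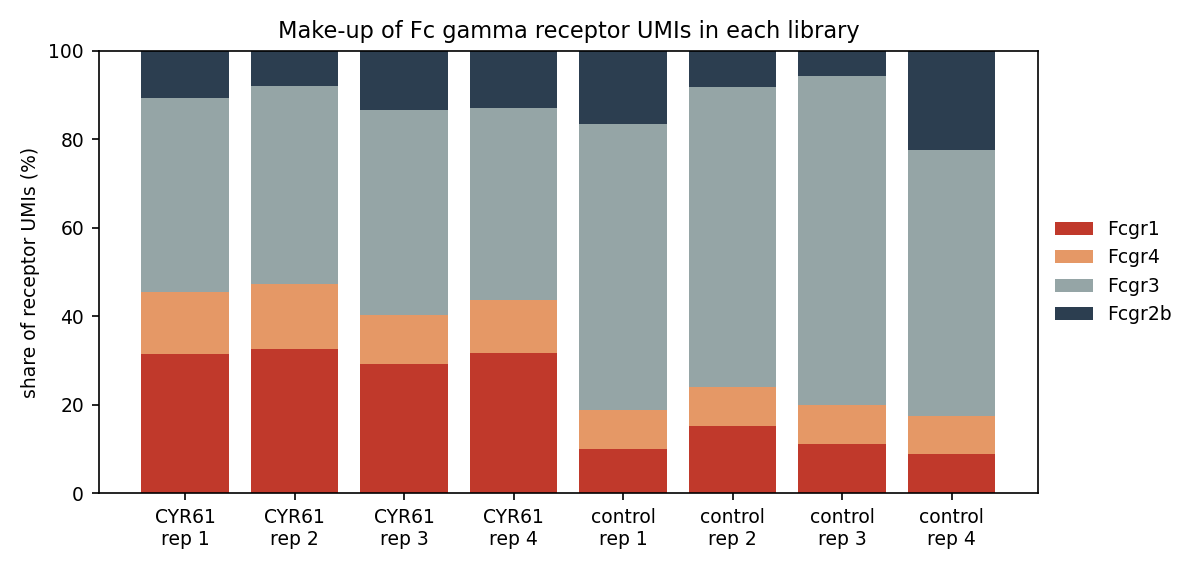
Share of Fc gamma receptor UMIs (percent, vertical axis) given by Fcgr1, Fcgr4, Fcgr3 and Fcgr2b in each library, as stacked bars that sum to 100. The Fcgr1 segment is 29.3% to 32.6% in CYR61 libraries and 8.96% to 15.1% in control libraries. The Fcgr2b segment ranges most among the control libraries, from 5.76% to 22.4%.

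The ratio of activating to inhibitory receptor RNA, as the sum of Fcgr1, Fcgr3 and Fcgr4 UMIs over Fcgr2b UMIs, did not separate the groups. It was 8.28, 11.4, 6.47 and 6.73 in CYR61 replicates 1 to 4, and 5.04, 11.1, 16.4 and 3.47 in control replicates 1 to 4. The control libraries spanned the whole CYR61 range and more. On the log2 scale the means were 3.00 ± 0.376 with CYR61 and 2.91 ± 1.02 in control (SD, n = 4 each), a difference of 0.09. No test was made of this ratio, since the members were chosen with earlier results known.

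Each activating receptor had its own ratio to Fcgr2b. Fcgr1 over Fcgr2b was 2.19 to 4.05 with CYR61 and 0.401 to 1.92 in control, without overlap, a log2 difference of 1.56. The difference was 0.88 in Xist libraries and 2.24 in Y libraries. The highest control value rests on 71 Fcgr1 and 37 Fcgr2b UMIs in replicate 3, so the gap to the lowest CYR61 value is small beside counting error. The same 37 UMIs lie behind the control value of 16.4 above. For Fcgr4 over Fcgr2b the difference was 0.61 and for Fcgr3 over Fcgr2b it was -0.52, both with overlapping groups. Fcgr3 gave the largest part of the activating UMIs in every library, and without it the log2 difference was 1.21, still with overlapping groups.

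The summed RNA of the activating receptors was higher with CYR61 relative to that of the chain they share. There were 1.81, 1.79, 1.51 and 1.53 activating receptor UMIs per Fcer1g UMI in CYR61 replicates 1 to 4, and 1.21, 1.27, 0.992 and 0.814 in control replicates 1 to 4. The groups did not overlap, with means of 1.66 ± 0.161 with CYR61 and 1.07 ± 0.210 in control (SD, n = 4 each). Fcgr1 and Fcgr4, the members called higher, are part of this sum. The levels of Fcgr3, its largest part, and of Fcer1g each overlapped between the groups, and the ratio was not taken for each receptor apart. This is a ratio of RNA counts and says nothing of receptor or chain protein at the surface.

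**Figure D3:**
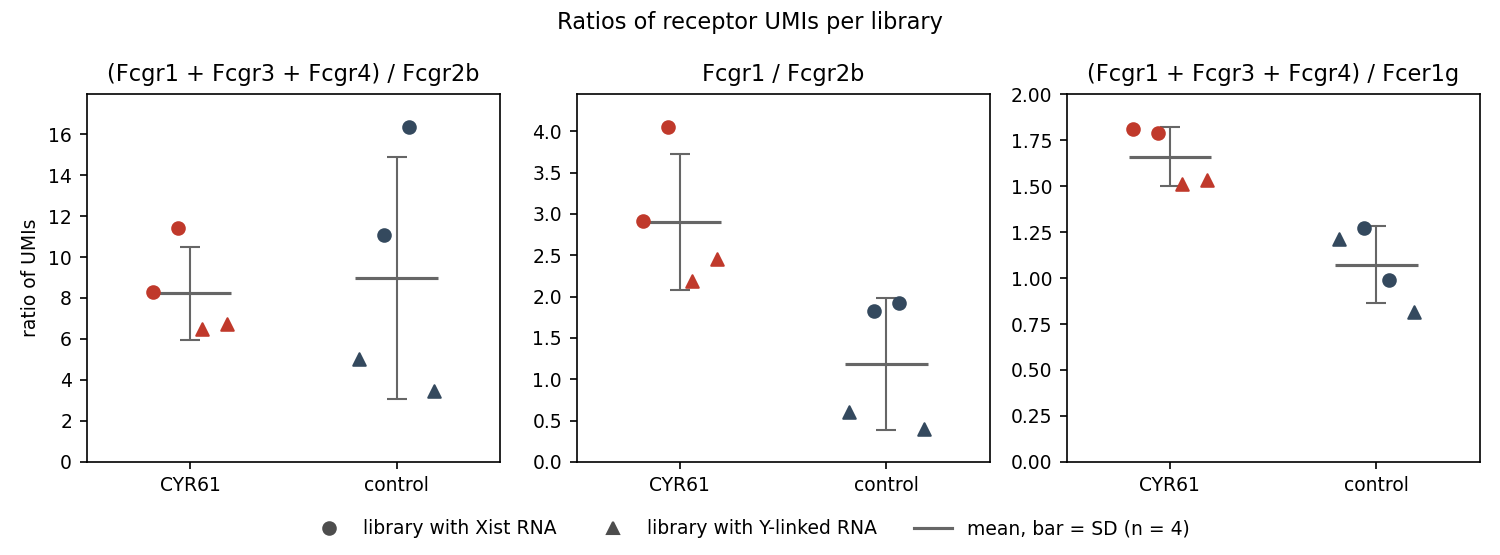
Ratios of summed UMIs per library (vertical axes from 0): activating receptors over Fcgr2b, Fcgr1 over Fcgr2b, and activating receptors over Fcer1g. Points are libraries, circles with Xist RNA and triangles with Y-linked RNA, with group means and SD. The first ratio overlaps between CYR61 (6.47 to 11.4) and control (3.47 to 16.4), while the other ratios do not overlap.

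The share of cells in which a member was detected was compared at a depth of 1000 UMIs per cell, as the mean over thinnings of each cell. This used 4201 CYR61 cells and 1017 control cells, and left out 2938 shallower CYR61 cells and 1040 shallower control cells. Fcgr1 was detected in 31.0%, 28.7%, 39.9% and 36.2% of cells in CYR61 replicates 1 to 4, and in 9.72%, 8.17%, 5.70% and 6.19% of cells in control replicates 1 to 4. The 95% Wilson intervals of these shares, which cover counting error alone, ran from 27.0% at the lowest to 46.9% at the highest with CYR61, and from 2.97% to 13.3% in control. The mean difference was 26.5 percentage points, and before thinning the shares averaged 45.8% with CYR61 and 15.3% in control. With shared barcodes left where they were listed, the mean shares at 1000 UMIs were 31.0% with CYR61 and 16.4% in control, a difference of 14.6 points.

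Fcgr4 was detected in 17.1%, 15.6%, 18.0% and 17.7% of cells in CYR61 replicates 1 to 4, and in 8.32%, 6.18%, 5.17% and 9.21% in control replicates 1 to 4. For Fcgr4, as for Fcgr1, every CYR61 library had a higher share than every control library, which held for 3.54% of all tested genes, and 4.88% were without overlap in either direction. The other members overlapped. Fcgr3 averaged 45.6% ± 7.10 with CYR61 and 40.8% ± 6.00 in control, Fcgr2b 14.6% ± 6.46 with CYR61 and 10.9% ± 7.54 in control, and Fcer1g 52.5% ± 8.12 with CYR61 and 50.1% ± 6.59 in control (SD, n = 4 each).

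**Figure D4:**
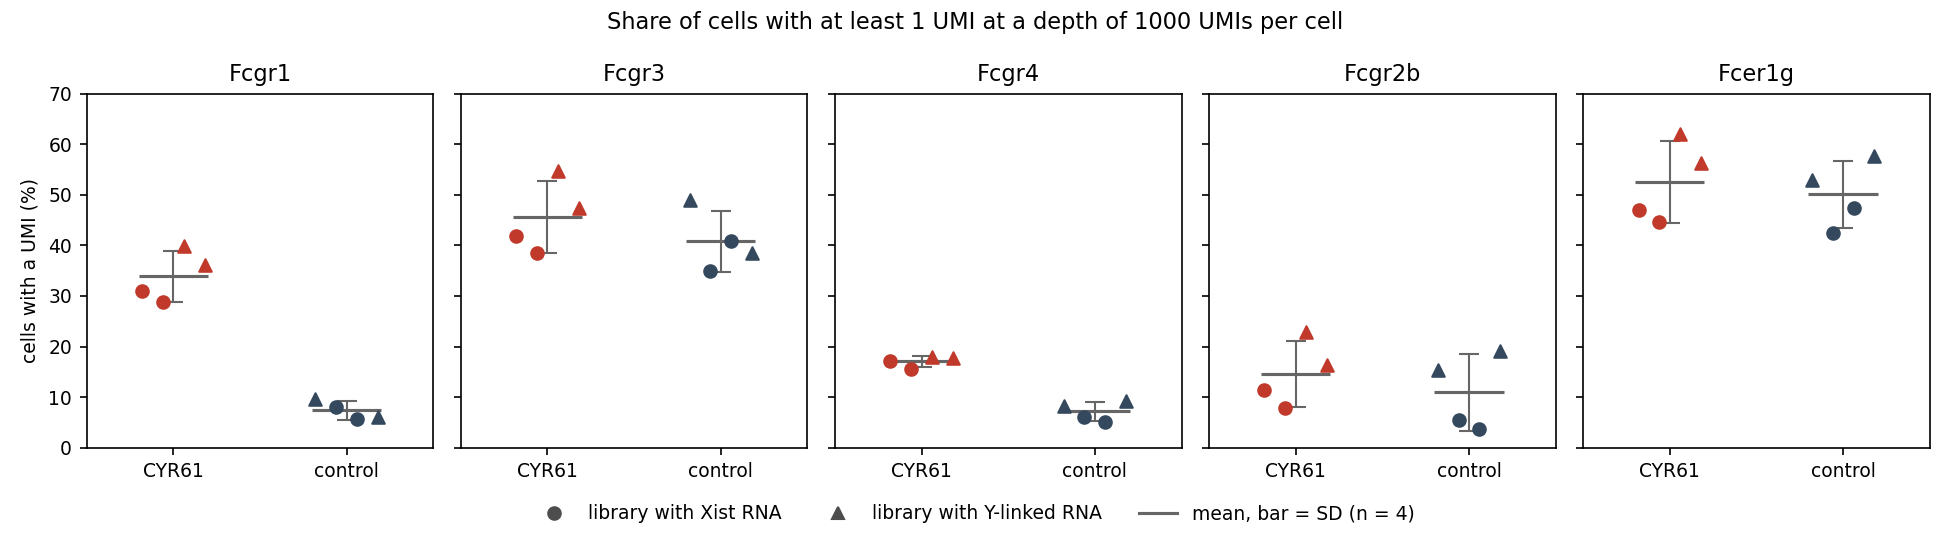
Share of cells with at least 1 UMI of each member at 1000 UMIs per cell (percent, vertical axis). Points are libraries, circles with Xist RNA and triangles with Y-linked RNA, with group means and SD. Shares with CYR61 lie above those of control without overlap for Fcgr1 (28.7% to 39.9% with CYR61, 5.70% to 9.72% in control) and Fcgr4 (15.6% to 18.0% with CYR61, 5.17% to 9.21% in control).

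UMIs per positive cell also differed for Fcgr1. Cells with at least 1 Fcgr1 UMI at this depth held 1.29 ± 0.0664 UMIs with CYR61 and 1.08 ± 0.0442 in control (SD, n = 4 libraries each), without overlap. For Fcgr4 these were 1.13 ± 0.0155 with CYR61 and 1.09 ± 0.0905 in control, and for Fcgr3 1.40 ± 0.0943 with CYR61 and 1.37 ± 0.0755 in control, both overlapping. At such counts, most of the difference in a library's Fcgr1 level lay in the share of cells with a UMI, and more cells with the RNA and more RNA per cell cannot be told apart in cells near 1 UMI.

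A share of cells with a UMI can hold RNA from outside the cell. In cells with at least 2% of UMIs in neutrophil granule genes, a range rather than a type, 1 thinning gave Fcgr1 in 11 of 39 cells with CYR61 (28.2%, Wilson interval 16.5% to 43.8%, median 2088 UMIs before thinning). In the other CYR61 cells it was in 1281 of 4162 (30.8%, median 2965.5 UMIs). In control it was in 1 of 12 granule-gene cells (median 4278 UMIs) and in 63 of 1005 other cells (6.27%, median 2141 UMIs). Fcgr3 was in 9 of 39 granule-gene cells with CYR61 (23.1%), against 42.0% of the other CYR61 cells. In control it was in 6 of 12 granule-gene cells, against 42.5% of the other cells. Fcer1g was in 24 of 39 granule-gene cells with CYR61 (61.5%), against 47.6% of the other CYR61 cells. With CYR61, the pooled Fcgr1 share in granule-gene cells was close to that in the other cells, while the 12 control granule-gene cells were too few to compare. All these counts pool the libraries of a group, which contribute unequally. CYR61 replicate 3 had 26 granule-gene cells among 499 home-library cells, and replicate 2 had 13 among 3604. Without granule-gene cells, the Fcgr1 share ranged from 28.8% to 39.5% between CYR61 libraries. Library and kind of cell are thus mixed in the pooled shares. Of the granule-gene cells of both groups, 21.6% also held the macrophage marker Adgre1, against 42.6% of the other cells, and the part of free RNA in these shares was not tested. Leaving out the granule-gene cells, the mean Fcgr1 share was 34.0% with CYR61 and 7.50% in control.

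Cells were then classed by the receptors they held at 1000 UMIs. Cells with an activating receptor and no Fcgr2b made up 58.7% ± 1.11 with CYR61 and 43.0% ± 4.51 in control (SD, n = 4 each), without overlap. Cells with none of the 4 receptors made up 26.7% ± 7.55 with CYR61 and 46.0% ± 8.13 in control, also without overlap. Cells with both kinds were 10.5% ± 5.19 with CYR61 and 5.56% ± 4.23 in control, and cells with Fcgr2b alone 4.08% ± 1.39 with CYR61 and 5.39% ± 3.43 in control, with overlap in both classes. A class without a receptor means that no UMI was drawn at this depth. Fcgr1 and Fcgr4 count toward the activating classes, so the rise in their own shares given above enters these class shares. The classes are therefore no separate result about balance.

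Detection of several activating receptors in 1 cell was also more frequent with CYR61. At least 2 of the 3 were found in 24.2% ± 5.38 of cells with CYR61 and in 6.65% ± 1.71 in control (SD, n = 4 each), without overlap. Fcgr1 and Fcgr4 together were found in 6.28% ± 1.68 of cells with CYR61 and 0.618% ± 0.468 in control, and Fcgr1 with Fcgr2b in 4.69% ± 2.12 with CYR61 and 0.823% ± 0.611 in control. In control replicates 2 to 4, with 149 to 221 cells each, both of these pair shares amounted to fewer than 3 cells. Such joint shares rise when the share of each gene alone rises. They were not compared with the shares that independent detection would give, so they do not show joint expression beyond the single genes. The shared chain was detected in 53.8% ± 8.07 of Fcgr1-positive and 51.8% ± 8.03 of Fcgr1-negative cells with CYR61. In control it was detected in 51.2% ± 8.93 of Fcgr1-positive and 49.99% ± 6.40 of Fcgr1-negative cells.

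Members were also read in cells split by other programs at 1000 UMIs, within libraries that had at least 20 cells on both sides. In CYR61 libraries, cells with at least 2 UMIs of the complement C1q genes held Fcgr1 at 592 ± 219 CPM and cells with none at 386 ± 77.9 CPM (SD, n = 4 libraries), and the first was higher in 4 of 4 libraries. Control cells with at least 2 C1q UMIs held 0 to 11 Fcgr1 UMIs per library, too few to compare. Fcgr4 in the CYR61 libraries was at 196 ± 44.0 CPM and 192 ± 30.3 CPM in the same split, with the first higher in 3 of 4 libraries. Fcer1g was at 867 ± 241 CPM and 769 ± 208 CPM there, with the first higher in 4 of 4 libraries, as for Fcgr1. For Fcgr3 the first was higher in 2 of 4 CYR61 libraries and for Fcgr2b in 1 of 4. By the type I interferon list, CYR61 libraries had 3678 cells with at least 2 UMIs and 133 with none, and only replicates 1 and 2 could be split. Fcgr1 was at 401 CPM in the first set of cells and 400.0 CPM in the second in CYR61 replicate 1, and at 363 and 240.0 CPM in CYR61 replicate 2, where the second sets held 12 and 24 Fcgr1 UMIs. Control cells with at least 2 UMIs of the list likewise held 0 to 11 Fcgr1 UMIs per library. Cells of a library share its preparation, so these values are descriptions.

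The level of Fcgr2b separated the libraries by kind in both groups. In Xist libraries it was at 145 and 93.9 CPM with CYR61 and 66.2 and 43.9 CPM in control, and in Y libraries at 239 and 208 CPM with CYR61 and 190.0 and 231 CPM in control. In an edgeR fit with the protein as a term, Fcgr2b was higher in Y than in Xist libraries by 1.36 on the log2 scale (SE 0.22, adjusted p = 0.00121), beside 15.3% of all genes called in that contrast. Fcer1g was higher in Y libraries by 0.55 (edgeR adjusted p = 0.0160) and Fcgr3 by 0.39 (edgeR adjusted p = 0.0407), while Fcgr1 and Fcgr4 had values of 0.23 and 0.26 (edgeR adjusted p = 0.278 and 0.223). This split was chosen after the libraries' values were seen, and the part of the higher mitochondrial share in Xist libraries was not tested.

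Within each kind, Fcgr1 and Fcgr4 were again higher with CYR61. Fcgr1 had log2 fold changes of 2.06 in Xist libraries (edgeR adjusted p = 0.00501) and 2.33 in Y libraries (edgeR adjusted p = 4.17e-09), where 3.06% and 1.85% of genes were called. Fcgr4 had 1.46 (edgeR adjusted p = 0.00927) and 1.08 (edgeR adjusted p = 0.00566). Fcgr2b had 1.20 in Xist libraries (SE 0.28, edgeR adjusted p = 0.0674) and 0.11 in Y libraries (edgeR adjusted p = 0.996), and the difference of these effects was -1.04 (SE 0.35, edgeR adjusted p = 0.335; 0.048% of genes called). With library kind as a block in the fit of all libraries, Fcgr2b had 0.58 (edgeR adjusted p = 0.301; 2.22% of genes called). The log2 ratio of activating receptors to Fcgr2b had a CYR61 minus control difference of -0.47 in Xist libraries and 0.66 in Y libraries. With n = 2 per group, these within-kind values rest on few libraries.

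Date stamps, the only batch named, gave the same direction for both called members. Fcgr1 had log2 fold changes of 1.90 in the libraries of the earlier stamp (edgeR adjusted p = 0.0178) and 2.51 in those of the later one (edgeR adjusted p = 9.03e-04), with 0.693% and 0.92% of genes called. Fcgr4 had 1.15 and 1.30, and passed the threshold at neither stamp (edgeR adjusted p = 0.0768 and 0.114). The difference of the CYR61 effect between stamps was 0.66 for Fcgr1 (edgeR adjusted p = 0.481), and edgeR called 0 of 10422 genes in that contrast, with 1055 at an unadjusted p under 0.05 and no other tool run. The CYR61 libraries with the earlier stamp were of the Xist kind and those with the later stamp of the Y kind, so stamp and kind cannot be told apart within the CYR61 group.

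The genes that carry the signal of these receptors are given by list, beside the 1.16% of all tested genes that were called, a share at which lists of this size would hold few or no calls, so a count of 0 is not a result about a list. Syk was at 229 ± 68.0 CPM with CYR61 and 227 ± 14.2 CPM in control (log2 fold change 0.05, edgeR adjusted p = 0.9999). Of the SRC family kinases and SYK, 0 of 7 tested genes were called, and their median log2 fold change was 0.17, beside -0.02 over all tested genes. None of 20 adaptors and effectors below the ITAM was called (median 0.16), none of 18 phagocytic cup and actin genes (median 0.13) and none of 5 NADPH oxidase genes (median 0.27). Among other ITAM adaptors and the receptors that pair with them, 0 of 9 were called (median 0.22), and Tyrobp, the adaptor also known as DAP12, had a log2 fold change of 0.13 (edgeR adjusted p = 0.9999).

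The counts of the inhibitory arm are read against the same 1.16%. None of 11 inhibitory phosphatases and adaptors was called, with a median of -0.01, and none of 12 ITIM receptors other than Fcgr2b, with a median of 0.03. Inpp5d, which encodes SHIP1, was at 79.5 ± 5.01 CPM with CYR61 and 81.4 ± 23.9 CPM in control (log2 fold change -0.01). Ptpn6, the tyrosine phosphatase SHP-1, was at 309 ± 69.9 CPM with CYR61 and 229 ± 57.8 CPM in control, a log2 fold change of 0.48 (edgeR adjusted p = 0.763).

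Other Fc receptors were scarce. Fcgrt, the neonatal receptor that recycles IgG, was at 21.8 ± 7.84 CPM with CYR61 and 10.2 ± 6.70 CPM in control (log2 fold change 1.09, edgeR adjusted p = 0.787). Trim21, a cytosolic antibody receptor, was at 15.2 ± 2.44 CPM with CYR61 and 10.1 ± 2.74 CPM in control (log2 fold change 0.63, edgeR adjusted p = 0.911). Of the chains of antibody itself, Ighm alone had counts enough to test, and it was lower with CYR61, at 3.23 ± 1.65 CPM against 23.9 ± 11.1 CPM in control (log2 fold change -2.72, edgeR adjusted p = 0.0196), with B cell markers near 0 in both groups as given above.

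The type I interferon list, which was chosen with earlier results known and is no independent evidence, had 30 of 30 genes higher with CYR61 and a median log2 fold change of 3.58. Fcgr1 and Fcgr4 had smaller changes than that median. Oasl2, Ifit1 and Isg15, an oligoadenylate synthetase family member, an RNA-binding protein and a ubiquitin-like modifier, had log2 fold changes of 3.51, 5.63 and 4.05 (edgeR adjusted p = 8.47e-05 for each). C1qa, a chain of the complement protein that binds antibody in immune complexes, was 1 of 3 C1q genes called and had 1.70 (edgeR adjusted p = 0.00355). Of the MHC class II list 0 of 6 genes were called (median 1.26), of the mitosis list 0 of 19 (median -0.21), and of the monocyte list 1 of 7, Ms4a4c, at 111 ± 94.7 CPM with CYR61 and 0.666 ± 1.15 CPM in control (edgeR adjusted p = 0.00185).

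**Figure D5:**
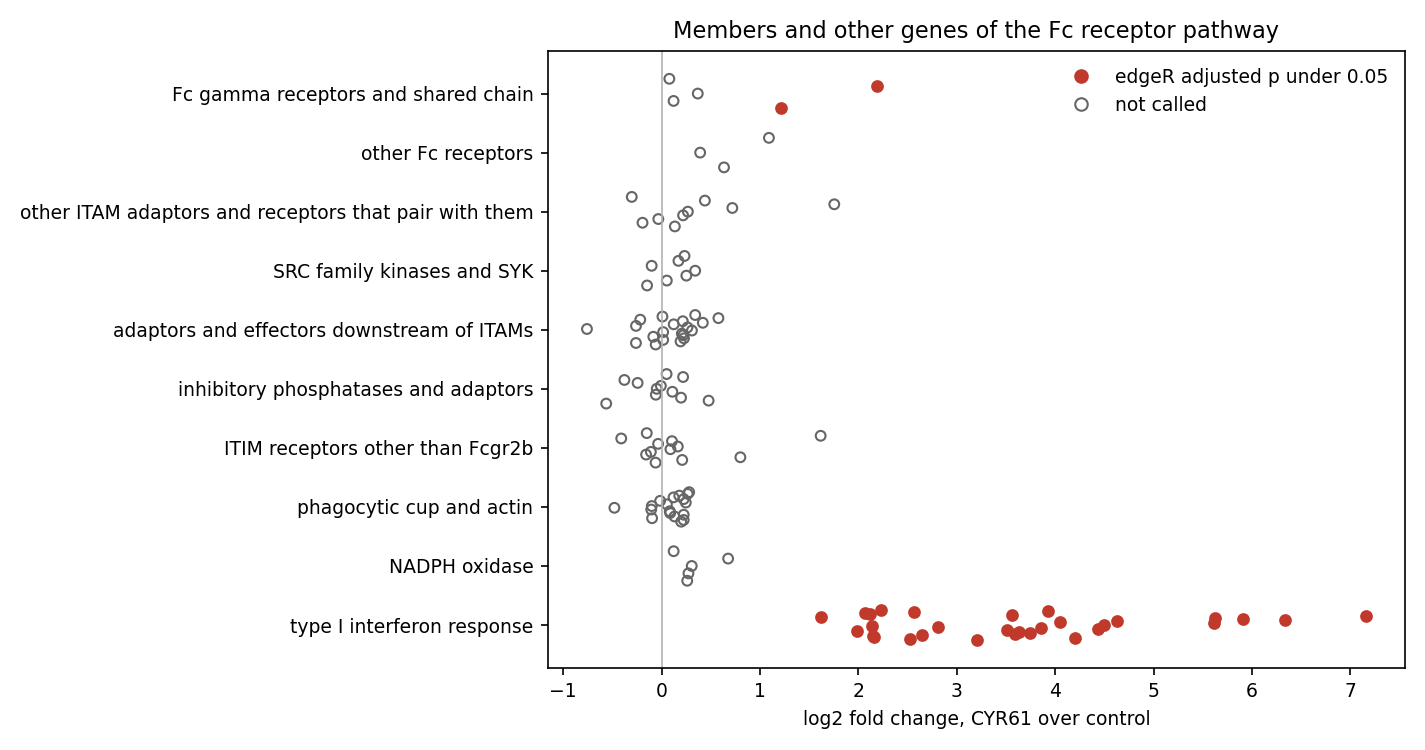
Log2 fold change of CYR61 over control (horizontal axis) for the members and for genes of the pathway lists (rows). Each point is a gene, filled where the edgeR adjusted p was under 0.05. Fcgr1 (2.19) and Fcgr4 (1.22) are the filled points of the top row, the rows of kinases, adaptors, phosphatases, phagocytic and oxidase genes hold open points alone, and all 30 interferon genes are filled.

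The genes whose log2 CPM followed each member most closely over the 8 libraries were sought among 3776 genes of at least 50 CPM on average. For Fcgr1 they included Zbp1 and Lgals3bp (Pearson r 0.985 for both), and for Fcgr4 Usp25, Slfn5 and Parp14 (0.990, 0.980 and 0.977). For Fcgr2b they were Dok1, Ufd1 and Gngt2 (0.988, 0.985 and 0.974), for Fcgr3 Bag6, Pet100 and Cyba (0.978, 0.976 and 0.955), and for Fcer1g Mtmr3, Uqcr10 and Rasa4 (0.977, 0.971 and 0.968). These correlations run over both groups together, so a member that differs between the groups is most like genes that also differ. They are descriptions over 8 libraries that share depth, date and library kind.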

How the data were processed

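RNA of single cells was counted in 8 libraries made with HIVE. The authors deposited raw UMI counts per gene and barcode, 5000 barcodes a library, and the genome build is mm10 per the submitters' processing notes. The sources used here do not give the aligner, counter or annotation. Doublets were not called. Total counts per library ranged from 1379637 to 16318946. Counts of the home-library cells defined in the report were summed per library and tested with edgeR 4.0.16 (TMM, filterByExpr, quasi-likelihood, group as the term, Benjamini-Hochberg over 10422 genes, threshold 0.05) in R 4.3.3. DESeq2 1.42.0 was an alternative. CPM scale to 1000000 UMIs of those cells. Shares at 1000 UMIs are exact means over thinnings, and splits by cell program used 1 random thinning. Members, lists and tests were chosen with earlier results of these data known. Genes named were the members, Syk, Inpp5d, Ptpn6, Tyrobp, Fcgrt, Trim21, up to 4 called genes per list and direction, and the 3 genes most correlated with each member, apart from items not reported here. The fit was tested on simulated data.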

Additional observations from a re-analysis of the deposited data

Results flagged for a closer look

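Of 48 sets of 4 libraries examined for a library that stands apart, 1 was flagged, where chance flags about 1 in 20. Cells in which all 3 activating receptors were detected made up 0.588% in control replicate 1, against 0.102% to 0.179% in the other control libraries, and 1.79% to 5.22% with CYR61. Each of these control shares amounts to fewer than 3 cells, which would be 0.624% in control replicate 1 and 1.36% to 2.01% in the others. The 95% Wilson interval in control replicate 1, 0.195% to 1.77%, overlapped those of the other control libraries.

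The share of cells with Fcgr2b alone differed in direction between library kinds, and the difference was not tested. In Xist libraries it was 3.73% and 2.85% with CYR61 and 2.68% and 2.60% in control, a mean difference of 0.654 points. In Y libraries it was 6.07% and 3.67% with CYR61 and 6.55% and 9.73% in control, a mean difference of -3.27 points.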

How the results depend on the processing

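Fcgr1 was called in 24 of 25 alternative settings and Fcgr4 in 22 of 25, each with CYR61 higher in all. Without the rule on shared barcodes, the log2 fold changes were 1.12 and 0.70 (edgeR adjusted p = 0.9999 for both), and edgeR called 0 genes there, with 279 at an unadjusted p under 0.05. DESeq2 was run on the home-library cells alone. Fcgr4 was at 1.15 and 1.30 in the libraries of the earlier and the later date stamp, called in neither.

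Leaving out 1 library at a time, Fcgr1 ranged from 2.13 to 2.28, Fcgr4 from 1.15 to 1.32, Fcgr2b from 0.11 (without control replicate 3) to 0.82 (without control replicate 4), Fcgr3 from 0.052 (without CYR61 replicate 3) to 0.23 (without CYR61 replicate 2), Fcer1g from -0.043 (without control replicate 2; -0.0041 without CYR61 replicate 3) to 0.30, and the count of called genes from 74 (without CYR61 replicate 4) to 127. Fcgr3 was -0.091 and Fcgr2b -0.051 at the earlier date stamp alone. The count of called genes, 121, was 216 with DESeq2, 239 with no gene filter, 231 with library kind as a block, 371 in Xist libraries alone (132 higher and 239 lower with CYR61) and 196 in Y libraries alone (174 higher and 22 lower), the last 2 chosen after seeing the data. In the fit of all libraries 117 were higher and 4 lower. The causes were not tested.

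The log2 ratio of activating receptors to Fcgr2b differed by 1.56 with Fcgr1 alone and 1.21 without Fcgr3, and by -0.28 (without control replicate 4) to 0.47 (without control replicate 3) leaving out 1 library. The difference in the share of cells with Fcgr1 was 15.0 points at 500 UMIs, 39.7 at 2000, 30.6 unthinned, 14.6 in all kept cells, and 20.9 and 32.1 at the earlier and later date stamp. For Fcgr4 it was 5.63 points at 500 UMIs, 16.1 at 2000, 16.0 unthinned and 5.92 in all kept cells, and for Fcgr3 -1.80 and 11.3 at the earlier and later date stamp.

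The correlation of the deviations of same-numbered libraries was -0.198, 0.324, -0.0874 and 0.314 for numbers 1 to 4, so the numbers were not taken to pair the samples. With the replicate block, the log2 fold changes were 2.18 for Fcgr1 (edgeR adjusted p = 4.05e-04) and 1.23 for Fcgr4 (edgeR adjusted p = 0.0100), and 112 genes were called. The control Fcgr1 level rests on 700 UMIs over 4 libraries.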
